A study of Mus musculus with 9 samples.

Results

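The transcripts described are those of 31 genes of fatty acid uptake and oxidation, named by symbol and present in 31 of the 55401 rows of a gene count table of mouse hearts. No member's symbol was repeated among the rows, and all 31 passed the filter on low counts. They were grouped by role into uptake and activation (Lpl, Cd36, Slc27a1, Fabp3, Acsl1), the carnitine shuttle (Cpt1a, Cpt1b, Slc25a20, Cpt2) and malonyl-CoA turnover (Acacb, Mlycd). The further roles were the beta-oxidation spiral (Acadvl, Acadl, Acadm, Acads, Hadha, Hadhb, Echs1, Hadh, Acaa2), the auxiliary enzymes for unsaturated fatty acids (Decr1, Eci1, Ech1) and electron transfer (Etfa, Etfb, Etfdh). Thioesterases (Acot1, Acot2, Acot3, Acot13) were described together with the carrier Ucp3.

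RNA sequencing of total heart RNA covered 3 groups of 3 libraries. KO-TAC hearts were from c-Myc knockout mice, in which floxed c-Myc is deleted by a Cre driven by Tcf21, a gene of cardiac fibroblasts, and which underwent transverse aortic constriction (TAC), an operation that narrows the aortic arch and so raises the pressure load on the heart. TAC hearts were from wild-type (WT) mice after the same operation, and control hearts were from WT mice of the sham-operated group. The mice were male and 8 to 12 weeks old at surgery, and the titles of the KO-TAC and TAC samples carry a time of 12 weeks. Tamoxifen, which activates the Cre, was given to the knockout line over 5 days at 45 mg/kg. No label states whether WT mice had tamoxifen too, and no sham-operated knockout group and no Cre control were analysed here. Tamoxifen, Cre and the lost gene therefore cannot be told apart in the comparisons with KO-TAC. Hearts carry numbers within their group, but no label says that they came from separate mice, so p-values measure only the spread between these samples.

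Long-chain fatty acids are the main fuel of the adult heart. Lipoprotein lipase frees them from circulating triglyceride, membrane and cytosolic carriers take them into the cardiomyocyte, and acyl-CoA synthetases activate them. Carnitine palmitoyltransferases carry the acyl groups across the mitochondrial membranes, a step that malonyl-CoA inhibits, and the beta-oxidation spiral then shortens them and passes electrons to the respiratory chain. Many of these genes are known targets of PPAR-alpha, the estrogen-related receptors and their coactivator PGC-1, and their transcripts are known to be low in failing hearts.

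The stretches before the transcription start are shown for the members that hold letters of the binding motifs of those factors, or of Myc, since most members were high and low in the same hearts. RefSeq (GRCm38.p6) gave 30 windows for 26 of the 31 members, and Lpl, Cpt1b, Acaa2, Decr1 and Acot13 had none in the table. Both strands of the 250 bases before each start were searched. The direct repeat bound by PPAR and its partner is 2 copies of AGGTCA with 1 letter between them. It was in 0 of the 30 windows of members and in 0.0335% of 32851 windows of all genes. Allowing up to 2 differing letters, it was in 4 of the 30 windows of members (Cd36, Ucp3, Echs1 and Etfa) and in 3.24% of all windows. The letters AAGGTCA are bound by estrogen-related receptors and overlap the repeat in the letters AGGTCA. They were in 1 of the 30 windows of members, in Acadm, and in 4.08% of all windows. The E-box CACGTG, bound by Myc with Max, was in 1 of the windows of Slc27a1 and in 6.02% of all windows. Each sequence below runs 5′ to 3′ on the strand of its gene, and capitals mark the matched letters. The windows are chr5:17835897-17836146 (minus strand) for Cd36, chr7:100472741-100472990 (plus) for Ucp3, chr7:140116422-140116671 (minus) for Echs1, chr9:55512244-55512493 (minus) for Etfa, chr3:153944644-153944893 (minus) for Acadm and chr8:71570344-71570593 (plus) for Slc27a1.
Cd36: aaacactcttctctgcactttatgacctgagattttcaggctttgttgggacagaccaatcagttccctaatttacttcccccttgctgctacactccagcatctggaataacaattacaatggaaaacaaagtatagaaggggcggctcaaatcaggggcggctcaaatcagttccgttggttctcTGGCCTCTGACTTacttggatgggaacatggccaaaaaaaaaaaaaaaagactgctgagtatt
Ucp3: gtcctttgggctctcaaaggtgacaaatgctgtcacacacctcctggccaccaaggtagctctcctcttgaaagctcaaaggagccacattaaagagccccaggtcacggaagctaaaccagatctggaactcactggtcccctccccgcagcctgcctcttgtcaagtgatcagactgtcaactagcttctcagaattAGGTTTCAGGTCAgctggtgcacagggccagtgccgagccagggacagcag
Echs1: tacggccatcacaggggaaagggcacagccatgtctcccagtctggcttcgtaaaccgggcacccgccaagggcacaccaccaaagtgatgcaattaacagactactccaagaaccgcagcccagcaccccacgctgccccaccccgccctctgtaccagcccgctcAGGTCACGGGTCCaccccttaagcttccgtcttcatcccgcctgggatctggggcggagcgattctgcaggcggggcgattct
Etfa: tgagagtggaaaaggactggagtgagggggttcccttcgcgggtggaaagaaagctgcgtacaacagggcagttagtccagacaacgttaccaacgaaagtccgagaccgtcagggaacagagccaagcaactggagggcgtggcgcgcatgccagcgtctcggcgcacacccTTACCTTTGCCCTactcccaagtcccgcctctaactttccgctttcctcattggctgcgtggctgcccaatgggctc
Acadm: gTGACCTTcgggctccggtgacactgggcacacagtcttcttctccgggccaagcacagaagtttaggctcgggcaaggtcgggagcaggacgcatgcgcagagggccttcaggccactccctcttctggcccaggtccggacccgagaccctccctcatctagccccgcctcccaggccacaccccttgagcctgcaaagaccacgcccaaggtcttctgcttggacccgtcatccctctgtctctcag
Slc27a1: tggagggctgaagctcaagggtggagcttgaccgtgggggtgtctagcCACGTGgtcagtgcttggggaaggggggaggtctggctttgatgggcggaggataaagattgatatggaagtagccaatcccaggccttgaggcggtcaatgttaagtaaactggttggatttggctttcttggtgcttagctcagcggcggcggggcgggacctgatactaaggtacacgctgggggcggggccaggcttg
The matched letters end 51 bases before the start in Cd36, 39 in Ucp3, 71 in Echs1 and 65 in Etfa. In Acadm they lie at the far end of the window, 243 bases or more before the start, and in Slc27a1 197 bases or more before it. The windows of Cd36 and Slc27a1 lie inside those genes as GENCODE M21 bounds them (17781690 to 17888801 and 71568882 to 71587302). They thus precede starts within the gene and not its outermost start. A match is a description of letters and was not tested as a binding site.

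Total counts were 59702513 (TAC replicate 3) to 109162107 (KO-TAC replicate 1) per library, mitochondrially encoded genes took 23.78% to 38.45% of them, and 21510 to 25001 genes had a count. Myc itself was at 4.23, 1.87 and 4.75 CPM (read counts after TMM scaling to the same total in each library) in KO-TAC hearts 1, 2 and 3, at 8.93, 6.22 and 14.2 CPM in TAC hearts, and at 2.15, 2.47 and 1.56 CPM in control hearts. KO-TAC hearts thus lay below all TAC hearts for the targeted gene, although the RNA holds cells without Cre too. The TAC hearts stood apart from one another. Counts and medians over the members are given with and without TAC replicates 2 and 3, and the difference of a member also without TAC replicate 2 where that gained a call. Such calls depend on leaving out the TAC heart nearest to control and keeping the lowest, TAC replicate 3. Without TAC replicate 3 edgeR called 0 members lower in TAC against control.

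As a set, the fatty acid genes lay well below control in KO-TAC replicates 1 and 2 and TAC replicates 1 and 3, and near control in KO-TAC replicate 3 and TAC replicate 2. They made up 1.95%, 2.37% and 2.77% of the non-mitochondrial counts in KO-TAC hearts 1, 2 and 3 and 1.47%, 2.78% and 0.573% in TAC hearts, against 2.81%, 3.21% and 3.09% in control hearts. The median over the 31 genes of log2 CPM minus the control mean was -1.26, -0.63 and -0.12 in KO-TAC hearts and -1.45, -0.02 and -3.70 in TAC hearts, against -0.09, 0.08 and 0.01 in control hearts. TAC replicate 3 was the lowest heart by a wide margin, and TAC replicate 2 and KO-TAC replicate 3 were nearest to control. These are bulk RNA values, in which fewer cells of a type and less RNA per cell cannot be told apart.

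**Figure D1:**
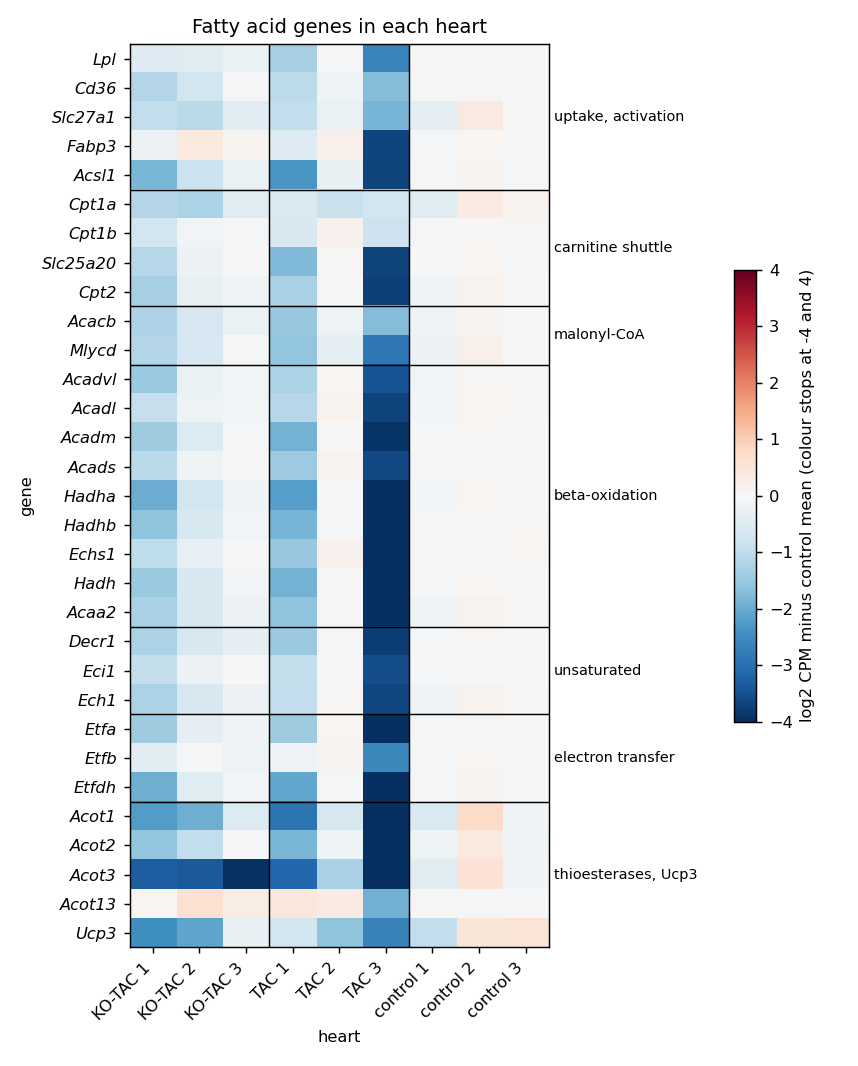
Heat map of log2 CPM minus the control mean for the 31 genes (rows, by role) in the 9 hearts (columns), with blue for lower and red for higher and the colour stopping at -4 and 4. The column of TAC replicate 3 is blue for every gene, with a median of -3.70, and that of TAC replicate 2 is near white, with a median of -0.02.

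Counting gene by gene, 30, 28 and 18 of the 31 members lay below the lowest control heart in KO-TAC replicates 1, 2 and 3. Over all 19051 genes tested the share was 35.6%, 34.5% and 29% in those hearts. In TAC replicates 1, 2 and 3 the counts were 29, 11 and 31 members, where 37.2%, 34.3% and 42.9% of all genes did so, and 9 members lay above the highest control heart in TAC replicate 2, beside 33.9% of all genes. Lpl, Acsl1, Cpt1a, Acacb, Hadhb, Decr1 and Acot3 were below every control heart in all 6 loaded hearts, 7 of 31 beside 6.8% of all genes. A further 13 members were below in 5 hearts and 9 in 4. Fabp3 was below in 3 hearts, and Acot13 was below in 1 and above every control heart in 5. These counts are descriptions with no test.

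The members' depth of change was set beside marker genes of the heart's cell types. The median of 16 cardiomyocyte markers, on the same scale, was -0.55, 0.13 and 0.02 in KO-TAC hearts and -0.59, 0.24 and -2.55 in TAC hearts, against 0.02, -0.04 and 0 in control hearts. Their summed level was 55730 to 91590 CPM in KO-TAC and 16700 to 106800 CPM in TAC hearts, against 94590 to 96950 CPM in control hearts. Myh6, the fast myosin heavy chain, was at 5419 CPM in TAC replicate 3 against 33380 to 33670 CPM in control hearts. By median, cardiomyocyte markers were thus low in KO-TAC replicate 1 and TAC replicates 1 and 3, as the fatty acid genes were. Their sum was below every control heart in all loaded hearts other than TAC replicate 2, at 83340 and 91590 CPM in KO-TAC replicates 2 and 3. The largest part of the sum, Myh6, was at 24400 and 29260 CPM in those 2 hearts. Atp2a2 was at 5742 and 9868 CPM there, against 12360 to 13450 CPM in control hearts. Other markers, named after their values were seen, lay above every control heart in both. Myl2 was at 6197 and 5893 CPM (control 5236 to 5570) and Actn2 at 1956 and 1667 CPM (control 1503 to 1583). The median of the fatty acid genes minus that of the markers was -0.71, -0.76 and -0.14 in KO-TAC hearts and -0.86, -0.27 and -1.16 in TAC hearts, against -0.11, 0.12 and 0.01 in control hearts. Of the 31 genes 27, 29 and 27 lay below the marker median in KO-TAC hearts and 28, 30 and 25 in TAC hearts, against 30, 1 and 10 in control hearts.

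Markers of other cells went the opposite way in some of the same hearts. The median of 14 endothelial markers was 0.29, 0.18 and 0.13 in KO-TAC hearts and 0.83, 0.02 and 1.17 in TAC hearts, with a summed level of 1601 to 1629 CPM in KO-TAC and 1695 to 3446 CPM in TAC hearts, against 1394 to 1504 CPM in control hearts. For 10 fibroblast markers the median was 0.44, 0.39 and -0.02 in KO-TAC hearts and 0.97, -0.02 and 1.13 in TAC hearts, with sums of 1855 to 2246 CPM in KO-TAC and 1611 to 4163 CPM in TAC hearts, against 1580 to 1775 CPM in control hearts. Macrophage markers summed to 263 to 445 CPM in KO-TAC and 241 to 515 CPM in TAC hearts, against 261 to 280 CPM in control hearts. Lep, which defines white fat, was at 0 in every library, and 8 adipocyte markers summed to at most 5.38 CPM. The 5 brown fat markers summed to 272 to 321 CPM in KO-TAC and 131 to 354 CPM in TAC hearts, against 260 to 290 CPM in control hearts. Most of that was Cox8b, a subunit of cytochrome c oxidase found in heart muscle too (75.4 CPM in TAC replicate 3 and 238 to 311 CPM in the other hearts), while Ucp1, which defines brown fat, was at 0 in every library. Dio2 of the same list, named after its values were seen, went the other way in TAC replicate 3. It was at 15.4, 20.5 and 3.51 CPM in KO-TAC and 26.4, 0.64 and 51.1 CPM in TAC hearts. Control hearts had 1.36, 0.598 and 0.478 CPM (TAC against control 5.00, edgeR adjusted p = 0.14). Skeletal muscle markers summed to at most 3.01 CPM. The part of these shifts in the members' values was not tested.

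**Figure D2:**
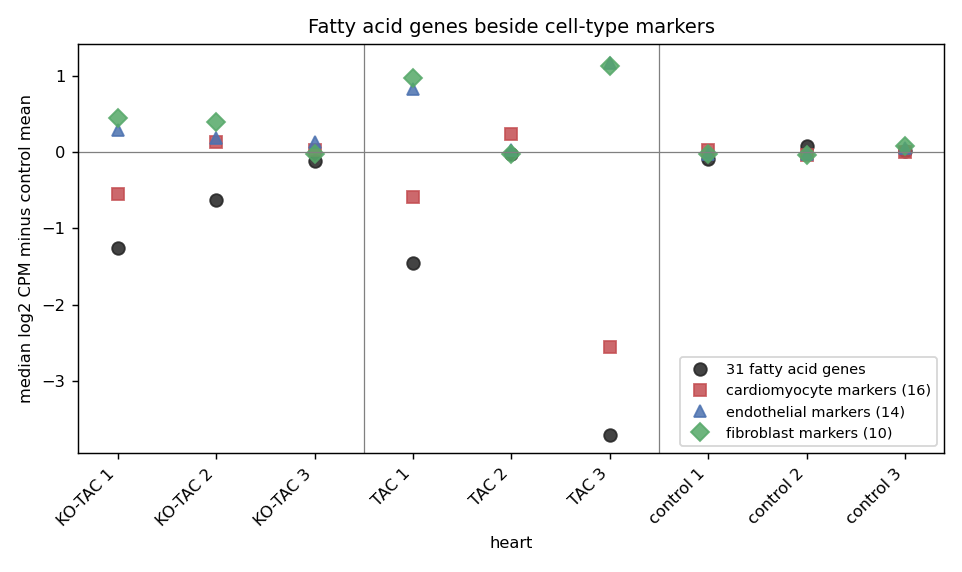
Median log2 CPM minus the control mean in each heart (horizontal axis) for the 31 fatty acid genes, 16 cardiomyocyte, 14 endothelial and 10 fibroblast markers. In TAC replicate 3 the fatty acid genes were at -3.70 and the cardiomyocyte markers at -2.55, while endothelial and fibroblast markers were at 1.17 and 1.13.

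Comparison of TAC with control hearts asked how pressure overload moved these genes in WT mice. Every member was lower in the fit, where 48.5% of all genes were, with a median log2 difference of -1 (all genes 0.03), but none passed: 0 of 31 had an adjusted p under 0.05 by edgeR's quasi-likelihood test, where 0% of all genes were called, and the lowest was that of Cpt1a (adjusted p = 0.17). At an unadjusted p under 0.05 by edgeR, 6 were lower (Cpt1a, Acot3, Mlycd, Slc27a1, Ucp3 and Acacb), beside 8.08% of all genes. The 3 TAC hearts lay below the 3 control hearts in 10 members, beside 14% of all genes. DESeq2 called 0 members lower where it called 2.87% of genes, and limma-voom with sample quality weights called 27 lower, where it called 19.8% of genes. Without TAC replicate 2 edgeR called 21 members lower, beside 14% of all genes, with a median of -2.08. The 10 not called then were Fabp3, Cpt1a, Cpt1b, Acadl, Eci1, Ech1, Etfa, Etfb, Acot13 and Ucp3. Without TAC replicate 3 it called 0, beside 0% of all genes, and the median was -0.62. The differences were then -0.56 for Lpl, -0.61 for Slc25a20, -0.79 for Hadha and -0.75 for Etfdh (edgeR adjusted p = 0.52, 0.6, 0.59 and 0.61).

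Comparison of KO-TAC with TAC asked how these genes differed under load when fibroblasts lacked Myc. By group means 29 of 31 members were higher in KO-TAC hearts (50.8% of all genes were), Cpt1a and Acot3 being the others, and the median log2 difference was 0.50 (all genes 0.01). The call by edgeR took in 0 of 31 members and 0% of all genes (lowest adjusted p = 0.73, Mlycd), and 0 members had an unadjusted p under 0.05, where 2.94% of all genes were higher and 4.51% lower at that threshold. DESeq2 called 0 members higher, beside 0.41% of all genes. In 0 members did the groups separate in either direction, where 5.17% of all genes separated as higher and 4.8% as lower. Limma-voom with sample quality weights called 2 higher, Acsl1 (adjusted p = 0.048) and Slc25a20 (adjusted p = 0.042), beside 3.3% of all genes. The size of the difference moved with single hearts: the median was 0.21 without KO-TAC replicate 3, 0.77 without KO-TAC replicate 1, 0.01 without TAC replicate 3 and 1.52 without TAC replicate 2.

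Comparison of KO-TAC with control shares its KO-TAC hearts with the one before and its control hearts with the first, so the 3 are not independent. In it 29 of 31 members were lower (46.2% of all genes were) with a median log2 difference of -0.59 (all genes 0.04), Fabp3 and Acot13 being the others. By edgeR 0 of 31 members were called, as were 0% of all genes (lowest adjusted p = 0.80, Cpt1a), and DESeq2 called 0 lower, beside 0.163% of all genes. At an unadjusted p under 0.05 by edgeR Cpt1a and Acot3 were lower, beside 2.24% of all genes. The KO-TAC hearts lay wholly below the control hearts in 17 members, beside 13.6% of all genes, and wholly above in Acot13, beside 12.9%. Limma-voom with sample quality weights called Slc27a1, Cpt1a and Acot3 lower (adjusted p = 0.036, 0.026 and 0.028), beside 2.8% of all genes. Without KO-TAC replicate 1 the median was -0.34, and without KO-TAC replicate 3 it was -0.92.

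**Figure D3:**
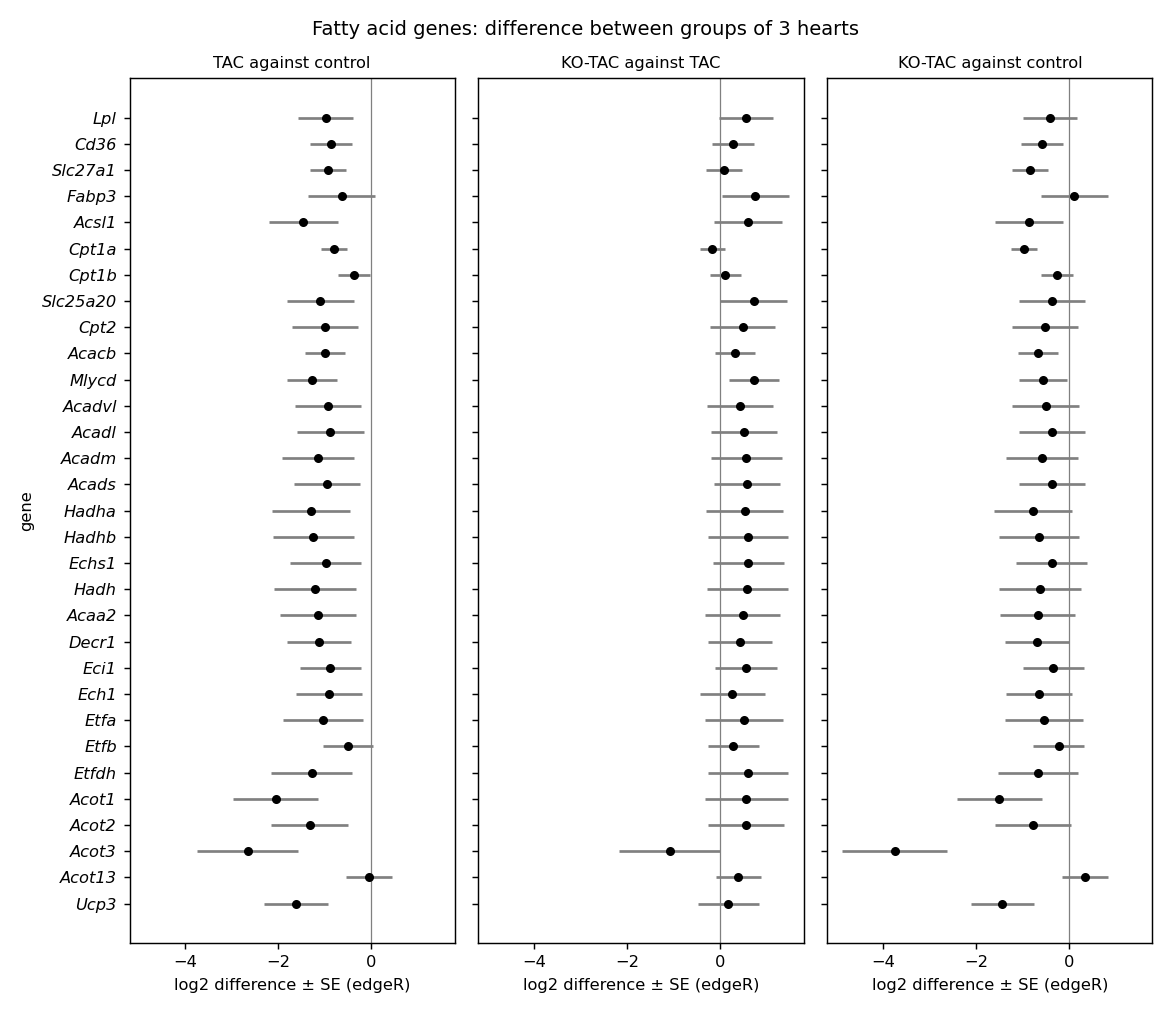
Log2 difference with its standard error from the edgeR fit for the 31 genes in TAC against control, KO-TAC against TAC and KO-TAC against control hearts (3 each). In TAC against control every point lies below 0, with Acot13 at -0.05 and Acot3 at -2.66, and none of the differences passed after adjustment.

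Among the genes of uptake and activation, those acting at the capillary and cell surface were lower in most loaded hearts while the cytosolic carrier was not. Lpl (chromosome 8, 68880491 to 68907448, GRCm38), lipoprotein lipase, was at 4167, 4180 and 4950 CPM in KO-TAC hearts and 2341, 5758 and 942 CPM in TAC hearts, against 5820, 6076 and 5880 CPM in control hearts. All 6 loaded hearts were below all control hearts, TAC replicate 2 only narrowly. The log2 difference of TAC from control was -0.98 (SE 0.59, edgeR adjusted p = 0.34), and without TAC replicate 2 Lpl was called lower at -1.86 (SE 0.47, edgeR adjusted p = 0.022). Cd36 (chromosome 5, 17781690 to 17888801), the fatty acid translocase of the cell surface, was at 658, 898 and 1439 CPM in KO-TAC hearts and 715, 1313 and 447 CPM in TAC hearts, against 1428, 1545 and 1506 CPM in control hearts. KO-TAC replicate 3 reached the control range and the rest did not. Without TAC replicate 2 Cd36 was called lower in TAC, at -1.37 (SE 0.40, edgeR adjusted p = 0.036). Slc27a1, a fatty acid transport protein, was at 99.3, 94.8 and 145 CPM in KO-TAC hearts and 101, 164 and 54.6 CPM in TAC hearts, against 156, 255 and 198 CPM in control hearts, and was called lower in TAC without TAC replicate 2 (-1.39, SE 0.35, edgeR adjusted p = 0.023).

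Fabp3 (chromosome 4, 130308595 to 130315463), the fatty acid binding protein of heart cytosol, was at 1879, 2870 and 2353 CPM in KO-TAC hearts and 1534, 2505 and 171 CPM in TAC hearts, against 2061, 2299 and 2214 CPM in control hearts. KO-TAC replicates 2 and 3 and TAC replicate 2 lay above every control heart, and its log2 difference was 0.11 (SE 0.72) in KO-TAC against control and -0.64 (SE 0.72) in TAC against control (edgeR adjusted p = 0.99 and 0.61), the second ranging over -1.36 to -0.13 with a library left out. Per kilobase of its principal transcript Fabp3 was the most abundant member in each group, at 2880 ± 602 CPM per kb in KO-TAC and 1710 ± 1420 in TAC hearts, against 2660 ± 147 in control hearts (SD, n = 3). The sequence of its transcript is shared with the pseudogene Fabp3-ps1 over 29.2% of its 50-base stretches, so its counts are uncertain by the reads placed there. Acsl1, the main acyl-CoA synthetase of heart, was at 230, 445 and 674 CPM in KO-TAC hearts and 162, 668 and 62.3 CPM in TAC hearts, against 782, 880 and 788 CPM in control hearts. All loaded hearts were below control. The log2 difference of TAC from control was -1.46 (SE 0.74, edgeR adjusted p = 0.28), and -2.87 (SE 0.56, edgeR adjusted p = 0.012) without TAC replicate 2.

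In the carnitine shuttle the liver-type and muscle-type isoforms of the entry enzyme lay apart from the other members in TAC replicate 3. Cpt1a (chromosome 19, 3322334 to 3385733), the liver-type carnitine palmitoyltransferase, was at 29.5, 27.7 and 47.8 CPM in KO-TAC hearts and 44.0, 35.6 and 38.7 CPM in TAC hearts, against 48.2, 83.3 and 74.0 CPM in control hearts. Every loaded heart was below every control heart, KO-TAC replicate 3 by less than 1 CPM, and TAC replicate 3 lay between the other TAC hearts. Cpt1a had the smallest adjusted p of the members in TAC against control, at a log2 difference of -0.80 (SE 0.28, edgeR adjusted p = 0.17). The same held for KO-TAC against control, where the difference was -0.97 (SE 0.28, edgeR adjusted p = 0.80). Cpt1b (chromosome 15, 89416405 to 89425863), the muscle type, was at 343, 526 and 552 CPM in KO-TAC hearts and 362, 637 and 319 CPM in TAC hearts, against 536, 590 and 586 CPM in control hearts. Its change in TAC replicate 3 was among the smallest of the members there. The readthrough model Gm44502 on the same strand shares 93% of the 50-base stretches of Cpt1b, and its own count was 9207 in TAC replicate 3 against 260 to 2068 in the other libraries, so the Cpt1b value there is uncertain.

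Slc25a20, the carnitine-acylcarnitine exchanger of the inner membrane, was at 62.6, 116 and 140 CPM in KO-TAC hearts and 40.7, 142 and 10.5 CPM in TAC hearts, against 137, 145 and 133 CPM in control hearts. Cpt2, which rebuilds acyl-CoA inside the mitochondrion, was at 74.5, 152 and 169 CPM in KO-TAC hearts and 76.4, 192 and 14.2 CPM in TAC hearts, against 171, 208 and 187 CPM in control hearts. Both were called lower in TAC without TAC replicate 2, Slc25a20 at -2.44 (SE 0.56) and Cpt2 at -2.06 (SE 0.64; edgeR adjusted p = 0.017 and 0.043). In TAC replicate 3 both were at -3.71 and -3.73 log2 units from the control mean, against -0.78 for Cpt1a and -0.84 for Cpt1b. The count of Cpt1a over that of Cpt1b was 0.0861, 0.0525 and 0.0866 in KO-TAC hearts and 0.122, 0.056 and 0.122 in TAC hearts, against 0.09, 0.141 and 0.126 in control hearts. KO-TAC ratios lay below all control ratios, at a mean log2 difference of -0.68 (exact permutation test, two-sided, p = 0.1, the smallest that 3 against 3 hearts allow, and 0.3 after adjustment over the 6 ratio tests). TAC ratios overlapped those of control hearts (-0.32, exact permutation p = 0.5, adjusted 0.5) and of KO-TAC hearts (KO-TAC minus TAC -0.36, exact permutation p = 0.5, adjusted 0.5).

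Of the enzymes of malonyl-CoA turnover, Acacb (chromosome 5, 114146535 to 114250761), which makes malonyl-CoA at the mitochondrial surface, was at 171, 255 and 336 CPM in KO-TAC hearts and 141, 349 and 120 CPM in TAC hearts, against 369, 437 and 410 CPM in control hearts. Mlycd (chromosome 8, 119394878 to 119411102), malonyl-CoA decarboxylase, was at 42.3, 59.7 and 91.6 CPM in KO-TAC hearts and 31.8, 72.7 and 13.1 CPM in TAC hearts, against 81.2, 108 and 96.1 CPM in control hearts. The enzyme that makes the inhibitor and the one that removes it were thus low in the same hearts. Their log2 differences were -0.99 (SE 0.43) and -1.28 (SE 0.53) in TAC against control (edgeR adjusted p = 0.23 and 0.22), and without TAC replicate 2 they were called lower at -1.64 and -2.08 (edgeR adjusted p = 0.012 and 0.014). The count of Acacb over that of Mlycd was 4.03, 4.27 and 3.67 in KO-TAC hearts and 4.42, 4.80 and 9.17 in TAC hearts, against 4.55, 4.04 and 4.26 in control hearts. The KO-TAC ratios lay below all TAC ratios (-0.54 on the log2 scale, exact permutation p = 0.1, adjusted 0.3), while TAC against control (0.44, exact permutation p = 0.2, adjusted 0.4) and KO-TAC against control (-0.10, exact permutation p = 0.3, adjusted 0.45) overlapped.

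The 9 genes of the beta-oxidation spiral were low in the same hearts, with a median of -1.42, -0.55 and -0.11 log2 units from control in KO-TAC hearts and -1.60, 0.03 and -4.03 in TAC hearts. Hadha and Hadhb encode the alpha and beta subunits of the mitochondrial trifunctional protein, and start 85 bases apart in opposite directions on chromosome 5 (between 30155162 and 30155248). Hadha was at 372, 893 and 1310 CPM in KO-TAC hearts and 323, 1391 and 85.6 CPM in TAC hearts, against 1367, 1562 and 1485 CPM in control hearts. Hadhb was at 475, 926 and 1326 CPM in KO-TAC hearts and 398, 1364 and 53.4 CPM in TAC hearts, against 1379, 1437 and 1493 CPM in control hearts. The pair was low in the same hearts, but not to the same degree. The count of Hadha over that of Hadhb was 0.783 to 0.988 in KO-TAC hearts and 0.811, 1.02 and 1.60 in TAC hearts. In control hearts it was 0.991 to 1.09. The ratio was thus below control in KO-TAC hearts and TAC replicate 1, and above it in TAC replicate 3, which stood apart. Both were called lower in TAC without TAC replicate 2, Hadha at -2.85 (SE 0.68) and Hadhb at -2.67 (SE 0.79; edgeR adjusted p = 0.019 and 0.036). Counts of Hadhb are uncertain, since 61.5% of its 50-base stretches are shared with the pseudogene Gm13910.

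The 4 acyl-CoA dehydrogenases, which open each round for very long (Acadvl), long (Acadl), medium (Acadm) and short chains (Acads), did not separate by chain length. Acadm was at 402, 735 and 1020 CPM in KO-TAC hearts and 291, 1098 and 70.8 CPM in TAC hearts, against 1028, 1106 and 1105 CPM in control hearts. Acadvl was at 334, 766 and 858 CPM in KO-TAC hearts and 382, 989 and 84.9 CPM in TAC hearts, against 861, 966 and 968 CPM in control hearts. Log2 differences of TAC from control were -0.94 (SE 0.71) for Acadvl, -0.88 (SE 0.71) for Acadl, -1.15 (SE 0.78) for Acadm and -0.95 (SE 0.71) for Acads, all closer together than their errors (edgeR adjusted p = 0.39 to 0.47). Without TAC replicate 2 Acadvl, Acadm and Acads were called lower and Acadl was not (edgeR adjusted p = 0.046, 0.02, 0.027 and 0.056). Exons of Acadvl overlap those of Dvl2 on the other strand, whose count in TAC replicate 3 was 1662 beside 7339 for Acadvl. The remaining steps were carried by Echs1, the short-chain hydratase, Hadh, the hydroxyacyl-CoA dehydrogenase, and Acaa2, the ketoacyl-CoA thiolase, with log2 differences of TAC from control of -0.98, -1.22 and -1.15 (SE 0.76 to 0.88). All 3 were called lower without TAC replicate 2, at -2.29, -2.73 and -2.43 (edgeR adjusted p = 0.031, 0.034 and 0.04).

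The auxiliary enzymes that handle double bonds were low in the same hearts. Decr1, dienoyl-CoA reductase, was at 157, 240 and 296 CPM in KO-TAC hearts and 136, 357 and 27.5 CPM in TAC hearts, against 358, 393 and 380 CPM in control hearts. Each loaded heart was below the control range, TAC replicate 2 by less than 2 CPM, and without that heart Decr1 was called lower in TAC (-2.21, SE 0.60, edgeR adjusted p = 0.028). Eci1, the enoyl-CoA isomerase, and Ech1, a dienoyl-CoA isomerase, had log2 differences of -0.88 (SE 0.66) and -0.91 (SE 0.70) in TAC against control (edgeR adjusted p = 0.44 and 0.45) and -0.34 and -0.65 in KO-TAC against control. Without TAC replicate 2 the differences of TAC from control were -1.72 and -1.79 and were not called (edgeR adjusted p = 0.073 and 0.078).

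Electron transfer from the dehydrogenases runs through the flavoprotein subunits Etfa and Etfb to the oxidoreductase Etfdh, and the 3 differed in how far they lay from control. Etfdh (chromosome 3, 79603788 to 79629500) was at 146, 402 and 520 CPM in KO-TAC hearts and 133, 545 and 24.6 CPM in TAC hearts, against 542, 605 and 553 CPM in control hearts. Etfa was at 189, 387 and 456 CPM in KO-TAC hearts and 186, 525 and 18.6 CPM in TAC hearts, against 480, 512 and 510 CPM in control hearts. Etfb was at 307, 404 and 371 CPM in KO-TAC hearts and 364, 457 and 70.9 CPM in TAC hearts, against 400, 446 and 422 CPM in control hearts. The log2 change of Etfb was above that of Etfa in every loaded heart other than KO-TAC replicate 3, and its log2 difference of TAC from control was -0.51 (SE 0.54) beside -1.04 (SE 0.85) for Etfa. Without TAC replicate 2 these were -0.96 and -2.29 and were not called (edgeR adjusted p = 0.22 and 0.065), while Etfdh was called lower at -2.85 (SE 0.75, edgeR adjusted p = 0.025). Etfb shares 67.3% of its 50-base stretches with the readthrough model Gm45233, so its counts are uncertain.

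Thioesterases, which split acyl-CoA back into fatty acid and coenzyme A, held both extremes of the set. Acot2, Acot1 and Acot3 lie within 72542 bases on chromosome 12 (83987861 to 84060402) and act in the mitochondrion, the cytosol and the peroxisome. Acot3 was counted 24, 12 and 8 times in KO-TAC hearts and 15, 50 and 0 times in TAC hearts, against 112, 190 and 148 times in control hearts. All 6 loaded hearts were far below control, TAC replicate 2 and KO-TAC replicate 3 included, and the count of 0 in TAC replicate 3 allows a level of up to 0.0347 CPM (3 counts, counting error only). In KO-TAC against control its log2 difference was -3.75 (SE 1.13, 13.5-fold lower) and was not called by edgeR over the 3 groups (adjusted p = 0.83) or by DESeq2 (adjusted p = 0.054). It was called in the edgeR fit to those 2 groups alone (-3.74, adjusted p = 0.024). In TAC against control it was -2.66 (SE 1.08, edgeR adjusted p = 0.21), and it was called lower without TAC replicate 2 (-4.37, SE 1.09, edgeR adjusted p = 0.021). Acot1 was at 3.69, 4.47 and 11.9 CPM in KO-TAC hearts and 2.31, 10.9 and 0.486 CPM in TAC hearts, against 11.4, 29.8 and 15.8 CPM in control hearts, and was called lower in TAC by edgeR without TAC replicate 2 (-3.77, SE 0.82, adjusted p = 0.015), as was Acot2 (-2.65, SE 0.75, adjusted p = 0.031). Acot1 and Acot2 share 23.7% and 24.5% of their 50-base stretches, and reads may have been split between them.

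Acot13 (chromosome 13, 24817948 to 24831540), a thioesterase of the mitochondrion from another protein family, was at 133, 193 and 158 CPM in KO-TAC hearts and 175, 160 and 33.9 CPM in TAC hearts, against 132, 122 and 128 CPM in control hearts. It was the member that stood above every control heart in 5 loaded hearts, and below in TAC replicate 3. Its log2 difference was 0.34 (SE 0.49) in KO-TAC against control and -0.05 (SE 0.49) in TAC against control (edgeR adjusted p = 0.92 and 0.96), and 0.38 in TAC against control without TAC replicate 3. Ucp3 (chromosome 7, 100472990 to 100486432), an inner-membrane carrier that fatty acids induce, was at 13.1, 16.6 and 58.8 CPM in KO-TAC hearts and 43.5, 23.7 and 11.3 CPM in TAC hearts, against 36.2, 100 and 104 CPM in control hearts. The control hearts were themselves widely spread, and control replicate 1 lay within the range of the loaded hearts of both groups. The log2 difference of Ucp3 was -1.62 (SE 0.68, edgeR adjusted p = 0.22) in TAC against control and 0.17 (SE 0.66) in KO-TAC against TAC, with -0.82 without KO-TAC replicate 3.

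Members differed in how far they followed the set. The interquartile range of their log2 change was 0.52, 0.46 and 0.21 in KO-TAC hearts and 0.85, 0.28 and 1.65 in TAC hearts, against 0.05 to 0.12 in control hearts. In TAC replicate 3, Cpt1a and Cpt1b lay 2.92 and 2.86 above the set's median, Cd36 and Acacb 1.96 each, Slc27a1 1.84, Acot13 1.80, Etfb 1.13 and Lpl 1.05. Hadh, Etfa and Hadhb lay furthest below it, after Acot3 and Acot1, at -1.25, -1.05 and -1.04. Several genes of uptake and mitochondrial entry were thus nearer to control in that heart than most genes of the spiral, though the Cpt1b value there is uncertain. Others of those roles lay at the set's median: Fabp3 (0.02), Acsl1 (-0.01), Slc25a20 (-0.01) and Cpt2 (-0.02). In TAC replicate 2, whose median was at control, Ucp3 (-1.59 from the set's median), Acot3 (-1.27), Cpt1a (-0.88) and Acot1 (-0.66) were low all the same. These genes also varied among control hearts. In the same order they were -0.91, -0.34, -0.38 and -0.53 from the set's median in control replicate 1, and 0.39, 0.49, 0.24 and 0.69 in control replicate 2. Acot3 was the lowest member in 5 of the 6 loaded hearts and Acot13 the highest in 5 of the 6.

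**Figure D4:**
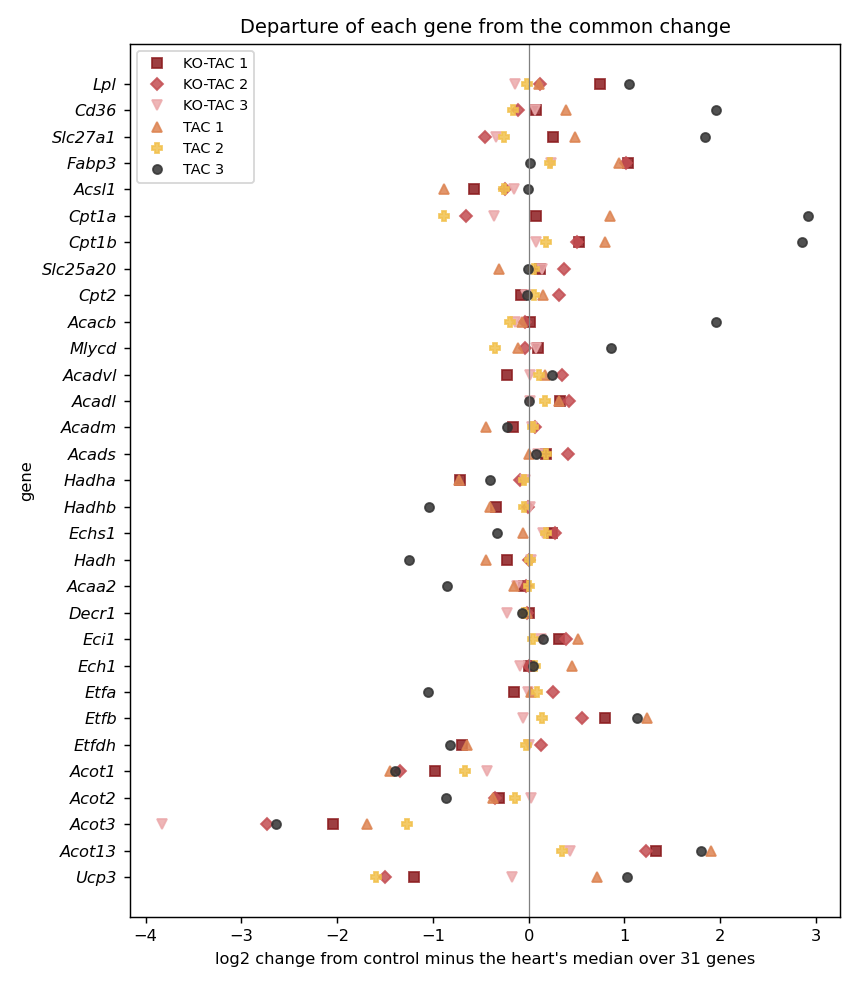
For each of the 31 genes (rows), its log2 change from the control mean minus the median change of the 31 genes in the same heart, in the 6 loaded hearts. In TAC replicate 3 Cpt1a and Cpt1b lie 2.92 and 2.86 above the median, and Acot3 lies below it in all 6 hearts (-3.83 to -1.27).

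Other genes of lipid handling were described from lists by role, and edgeR called 0 of them in TAC against control. For all these lists the background is that of the 19051 genes tested. In TAC against control DESeq2 called 546 of those lower and 1080 higher, and limma-voom 3766 lower and 3464 higher. At an unadjusted p under 0.05 by edgeR 8.08% of all genes were lower. In TAC against control 18 of 19 peroxisomal oxidation genes were lower (median log2 difference -0.69; 6 lower at an unadjusted p under 0.05 by edgeR), with 2 called lower by DESeq2 and 12 by limma-voom with the same weights. Phyh, which starts the breakdown of branched fatty acids, was at 253, 374 and 434 CPM in KO-TAC hearts and 208, 515 and 30.4 CPM in TAC hearts, against 443, 446 and 483 CPM in control hearts. It was low in the hearts in which the mitochondrial members were low. In KO-TAC against TAC 19 of 19 peroxisomal genes were higher by group means (median 0.39; 4 at an unadjusted p under 0.05 by edgeR), with 0 called by DESeq2 and 2 by limma-voom. Of all genes 50.8% were higher there, 2.94% at that unadjusted p, and DESeq2 and limma-voom called 0.41% and 3.3% higher.

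Among 16 genes of lipid droplets and triglyceride, 13 were lower in TAC than in control (median -0.65; 2 lower at an unadjusted p under 0.05 by edgeR, 0 called by DESeq2 and 9 by limma-voom). Dgat2, which makes triglyceride, and Pnpla2, which breaks it down, had log2 differences of -0.89 (SE 0.84) and -0.70 (SE 0.53). Of 19 other mitochondrial fatty acid and ketone genes 15 were lower (median -0.79; 5 lower and 2 higher at an unadjusted p under 0.05 by edgeR), with 2 called lower and 1 higher by DESeq2 and 13 lower and 2 higher by limma-voom. Pdk4, the kinase that holds back pyruvate oxidation, was at 68.4, 75.7 and 640 CPM in KO-TAC hearts and 136, 469 and 43.6 CPM in TAC hearts, against 289, 738 and 435 CPM in control hearts, and so varied widely in every group. Fatty acid synthesis genes did not lean as these did: 6 of 10 were higher (median 0.13; 3 higher and 1 lower at an unadjusted p under 0.05 by edgeR), with 2 called higher by DESeq2 and 3 higher and 2 lower by limma-voom. Me1, the gene of highest CPM in that list, was among the lower ones, at -1.07 (SE 0.55, edgeR adjusted p = 0.28). Its level was 49.8, 122 and 17.3 CPM in TAC hearts, against 118, 147 and 131 CPM in control hearts. In KO-TAC hearts it was 71.1, 98.9 and 97.5 CPM. Acly, which makes cytosolic acetyl-CoA, was at 36.9, 33.1 and 38.6 CPM in KO-TAC hearts and 47.0, 34.0 and 43.3 CPM in TAC hearts, against 35.0, 38.1 and 38.0 CPM in control hearts.

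The 15 tested genes of other uptake and activation steps were divided, with 9 higher and 6 lower in TAC than in control (median 0.04; 5 higher and 3 lower at an unadjusted p under 0.05 by edgeR). DESeq2 called 4 higher and 0 lower, and limma-voom 5 higher and 5 lower. Fabp4, a fatty acid binding protein of endothelium and fat, was at 610, 356 and 413 CPM in KO-TAC hearts and 856, 484 and 1472 CPM in TAC hearts, against 359, 454 and 418 CPM in control hearts. It was highest in the heart in which Fabp3 was lowest. Gpihbp1, which holds lipoprotein lipase on the capillary wall and was chosen after its values were seen, was at 71.5, 50.9 and 41.0 CPM in KO-TAC hearts and 107, 78.0 and 208 CPM in TAC hearts, against 49.1, 46.9 and 50.4 CPM in control hearts. The lipase and its capillary anchor thus lay on opposite sides of control in TAC hearts, and the median of the endothelial markers given above was highest in the same TAC heart as Gpihbp1. Crat, carnitine acetyltransferase, was at 164, 311 and 405 CPM in KO-TAC hearts and 131, 483 and 42.9 CPM in TAC hearts, against 418, 492 and 470 CPM in control hearts.

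Regulators of these genes were lower in 15 of 20 cases in TAC against control (median -0.64; 4 lower and 2 higher at an unadjusted p under 0.05 by edgeR, 1 called lower by DESeq2, 15 lower and 1 higher by limma-voom) and in 17 of 20 in KO-TAC against control (median -0.30; 0 at an unadjusted p under 0.05 by edgeR, 0 by DESeq2, 3 lower by limma-voom). Limma-voom called 19.8% of all genes lower in TAC against control and 2.8% in KO-TAC against control. Perm1, a muscle coregulator of PGC-1 and estrogen-related receptors, was at 183, 281 and 328 CPM in KO-TAC hearts and 129, 385 and 40.2 CPM in TAC hearts, against 306, 265 and 305 CPM in control hearts. Ppara, Ppargc1a, Ppargc1b, Esrrg, Ppard and Rxrb were named after their values were seen. Ppara, the fatty acid receptor of the PPAR family, was at 4.38, 8.74 and 16.9 CPM in KO-TAC hearts and 4.71, 27.5 and 1.63 CPM in TAC hearts, against 35.5, 26.1 and 27.0 CPM in control hearts. Ppargc1a, which encodes PGC-1alpha, was at 38.1, 49.0 and 83.5 CPM in KO-TAC hearts and 21.0, 265 and 4.54 CPM in TAC hearts, against 93.1, 92.1 and 85.4 CPM in control hearts. TAC replicate 2, the heart whose fatty acid genes were at control, thus had the highest Ppargc1a level of the 9 hearts and TAC replicate 3 the lowest. The log2 difference of Ppargc1a in TAC against control was 0.10 (edgeR adjusted p = 0.96). Ppargc1b, of the same list, was at 7.92, 8.50 and 17.6 CPM in KO-TAC hearts and 4.16, 11.31 and 3.29 CPM in TAC hearts, against 19.55, 19.01 and 16.55 CPM in control hearts. It was thus below every control heart in TAC replicate 2 too. Esrrg, an estrogen-related receptor, was at 17.99, 25.3 and 44.7 CPM in KO-TAC hearts and 10.1, 42.5 and 0.59 CPM in TAC hearts, against 50.9, 48.1 and 47.2 CPM in control hearts. Ppard and Rxrb of the same list differed little in TAC against control, at 0.01 and -0.09 (edgeR adjusted p = 0.97 and 0.80). Whether the level of any regulator bears on the members was not tested.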

How the data were processed

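Values in the deposited table are raw read counts, listed by gene symbol for 9 libraries with no sign of scaling. Per the labels' protocols, Trizol was used to isolate total RNA and the library kit was directional. Per the submitters' processing notes the builds were GRCm38 and mm10, and the tools included DESeq2 1.42.0, StringTie 2.2.1, HISAT2 2.2.1, Trim Galore 0.6.10 and SAMtools. How reads were counted, with which annotation and strand setting, is not stated there. Of the 55401 rows 110 repeat a symbol, and the row with the largest total was used.

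The members and gene lists were chosen with earlier results of these data known. The two-sided quasi-likelihood test of edgeR 4.0.16 (glmQLFTest after glmQLFit, under R 4.3.3) was run after TMM scaling and filterByExpr at a minimum count of 10. All 9 libraries were fitted with group as the only term, and Benjamini-Hochberg adjusted p under 0.05 was taken over 19051 genes. The biological coefficient of variation was 42.1%. CPM are counts scaled to a common total with TMM factors, log2 values used a prior count of 2, and errors are SD over 3 hearts or the SE of the fit. Ratios within a heart were compared with exact permutation tests (6 in all), which cannot go below 0.1. Libraries of a group all differed by more than sampling noise, with a chi-square of at least 23.42 per degree of freedom.

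Gene positions, principal transcripts and shared 50-base stretches came from GENCODE M21 (GRCm38), and promoter windows from RefSeq (GRCm38.p6). Named genes were all members, Myc, and from each other list those that passed or else the 2 of highest CPM. One gene named by that rule is not reported here. The result for each marker list is given in the report, except for atrial markers other than Nppa, of which Stard10 was at 9.41, 8.70 and 14.0 CPM in KO-TAC hearts and 7.10, 15.3 and 1.96 CPM in TAC hearts, against 15.2, 17.5 and 18.4 CPM in control hearts. Nppa was at 312 to 1295 CPM in KO-TAC and 385 to 1245 CPM in TAC hearts, against 59.4 to 141 CPM in control hearts. The fits were tested on simulated counts. Those had a smaller spread than these data and no outlying hearts, so they do not show how the fits perform on these hearts. Alternatives were limma-voom (limma 3.58.1) with quality weights, DESeq2 1.42.0, scaling by RLE factors or by library size, no filter, a filter of 1 CPM in 3 libraries, only the 2 groups compared, a replicate block, no mitochondrially encoded genes, and each library left out in turn.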

Additional observations from a re-analysis of the deposited data

How the results depend on the processing

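Calls depended on the tool and on single hearts, while directions of the members in TAC against control did not, except for Acot13. Over all genes edgeR called 0 in each comparison. DESeq2 called 1626 in TAC against control, 195 in KO-TAC against TAC and 89 in KO-TAC against control, and limma-voom with quality weights 7230, 996 and 991, with 27, 2 and 3 members among them. In KO-TAC against control 2 genes were called with no low-count filter and 30 in a fit to the 2 groups alone, where 1 was a member (Acot3). Leaving out 1 library gave 0 to 5477 calls in TAC against control (0 to 21 members), 0 to 13 in KO-TAC against TAC and 0 to 4 in KO-TAC against control. The median of the members ranged over -2.08 to -0.62, 0.01 to 1.52 and -0.92 to -0.34 in these fits. Library size alone moved the median of all genes to 0.29 in TAC against control and 0.28 in KO-TAC against control, and the members' medians were then -0.98 and -0.42.

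Reversed signs were found for Acot13 in TAC against control (0.04 with library size alone, 0.33 with limma-voom, -0.40 to 0.38 with a library left out) and Ucp3 in KO-TAC against TAC (-0.85 with limma-voom). With a library left out, KO-TAC against TAC spanned 0 for Cd36 (-0.08 to 0.79), Slc27a1 (-0.22 to 0.54), Cpt1b (-0.07 to 0.48), Cpt2 (-0.02 to 1.54), Acadvl (-0.06 to 1.48), Acadl (-0.01 to 1.53), Acaa2 (-0.06 to 1.76), Decr1 (-0.08 to 1.51), Ech1 (-0.24 to 1.15), Etfa (-0.04 to 1.75), Etfb (-0.18 to 0.73), Acot1 (-0.16 to 2.27), Acot3 (-1.68 to 0.62), Acot13 (-0.04 to 0.74) and Ucp3 (-0.82 to 0.76). KO-TAC against control did so for Fabp3 (-0.06 to 0.25), and the log2 ratio of Cpt1a over Cpt1b in TAC against control ran over -0.51 to 0.05. The causes were not tested.

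Replicate numbers of the titles did not pair the hearts: the correlations of deviations of same-numbered hearts were 0.001 to 0.037 between TAC and control, -0.255 to 0.124 between KO-TAC and TAC and -0.029 to 0.018 between KO-TAC and control, and 2 to 4 of 6 hearts correlated best with their own number. Count columns of the TAC hearts carry other numbers than the titles, and pairing by column number was not examined. With a replicate block edgeR called 0 genes, the members' medians were -1.35, 0.80 and -0.62, and Ucp3 in KO-TAC against TAC was -0.15. Depth limits only Acot3, whose counts were 0 to 50 in loaded hearts.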
